A study of Mus musculus with 12 samples.

Results

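The genes described here make and use glutathione and thioredoxin, the thiol systems with which a cell removes peroxides and reactive electrophiles. They were chosen by name. Of 55401 genes listed for each library, 54 were protein-coding genes named as glutathione S-transferases, microsomal glutathione S-transferases, glutathione peroxidases, peroxiredoxins, thioredoxins or thioredoxin reductases, or were one of 10 genes of glutathione synthesis, NADPH supply and quinone or biliverdin reduction. The rule itself uses names alone, though it was drawn up with earlier results of these data known. Their mRNA was measured by RNA-seq in 12 libraries, each made from a pool of 10 mouse embryos at the 8-cell stage.

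The study asked how the transcription factors NR5A2 and KLF5 act on gene expression before implantation. NR5A2 is an orphan nuclear receptor that opens chromatin, and KLF5 is a zinc finger factor of the Krüppel-like family. The zygotes came from B6129F1 females, 3 to 5 weeks old and superovulated, that were mated with B6CBAF1 males, and all of them received H2B-EGFP at 150 ng/µl as a marker of injection 8 to 9 h after fertilization. The control group received siRNA labelled NT at 15 µM (n = 2 libraries), the Nr5a2 KD group siRNA against Nr5a2 at 5 µM (n = 3), the Klf5 KD group siRNA against Klf5 at 10 µM (n = 3) and the dKD group both targeting siRNAs (n = 4), whose concentrations in that mixture are not given in the sources used here. Embryos of all groups were cultured in KSOM under 5% O2. The sex of the pooled embryos is not given in the sources used here.

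Nr5a2 mRNA was at 14.7% of control in Nr5a2 KD and at 13.7% in dKD (edgeR adjusted p = 0.000321 and 0.000198). Klf5 mRNA was at 24.5% of control in Klf5 KD, which did not pass the test over all genes (edgeR adjusted p = 0.0996), at 12.3% in dKD and at 30.6% in Nr5a2 KD, which received no Klf5 siRNA. The libraries held 6676683 to 12560926 counts on genes. All 8 marker genes of 8-cell embryos had counts in all 12 libraries. The summed level of 8 cumulus and granulosa cell markers was at most 3.3 CPM (counts scaled to a fixed library total with TMM factors) in any library, that of 4 oviduct markers at most 4.3 CPM and that of 3 stroma markers at most 1.38 CPM, with Ptx3, Inhba, Foxj1 and Dcn at 0 throughout. The summed level of 4 blood markers ranged from 3.22 to 6.74 CPM in control, from 5.2 to 8.66 in Klf5 KD, from 6.48 to 17.2 in Nr5a2 KD and from 9.03 to 26.9 in dKD. It was led by Hba-a1, while Hbb-bs and Ptprc had no count in any library, and the part of this in the results below was not tested. Nr5a2 KD replicate 3, Klf5 KD replicates 1 and 2 and dKD replicates 3 and 4, 5 libraries in all, stood apart with 4.41 to 8.28% of their gene counts on mitochondrially encoded genes, against 10.4 to 13.2% in the other 7.

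Glutathione is a tripeptide made by glutamate-cysteine ligase, a dimer of GCLC and GCLM, and by glutathione synthetase. Glutathione peroxidases spend it to reduce hydrogen peroxide and lipid peroxides, glutathione S-transferases attach it to electrophiles, and glutathione reductase restores it at the expense of NADPH. Peroxiredoxins reduce peroxides with a reactive cysteine, and most draw their electrons from thioredoxin, which thioredoxin reductases keep reduced, again with NADPH. The isocitrate dehydrogenases IDH1 and IDH2 and glucose-6-phosphate dehydrogenase, encoded by G6pdx, supply that NADPH. A cleaving embryo lives largely on mRNA and metabolites laid down in the oocyte until its own transcription takes over, and it is sensitive to the oxygen tension in culture. Many genes of these systems carry antioxidant response elements, which bind the factor NRF2.

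Some glutathione peroxidases and the thioredoxin reductases carry selenocysteine at the active site and others cysteine, so the sequence around that codon is printed here. In the coding sequences of GENCODE M21, 7 of the 54 genes had a TGA in frame, which these enzymes read as selenocysteine (Gpx1, Gpx2, Gpx3, Gpx4, Txnrd1, Txnrd2 and Txnrd3). At the matching place of Gpx7 and Gpx8 a cysteine codon stands. Capitals mark that codon, which is codon 47 of Gpx1, 40 of Gpx2, 129 of Gpx4, 612 of Txnrd1, 56 of Gpx7 and 79 of Gpx8, counted from the start codon.
Gpx1: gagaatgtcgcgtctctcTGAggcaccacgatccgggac
Gpx2: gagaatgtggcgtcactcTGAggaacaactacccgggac
Gpx4: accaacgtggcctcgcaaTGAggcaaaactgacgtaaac
Txnrd1: atcctccagtctggctgcTGAggttaa
Gpx7: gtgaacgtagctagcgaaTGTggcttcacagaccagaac
Gpx8: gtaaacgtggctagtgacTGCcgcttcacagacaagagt

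Promoters were read from RefSeq (GRCm38.p6) as the 250 bases before each start, and 49 of the 54 genes had at least 1 entry. The antioxidant response element core was searched as TGACNNNGC, the NR5A2 motif as CAAGGTCA or CAAGGCCA and a KLF motif as GGGNGTGG, on both strands, and no 2 matches within 1 promoter shared a base. The antioxidant letters stood in 8 of 66 promoters of these genes (12.1%) and in 10.2% of 32851 promoters of all genes. The NR5A2 letters stood in 3 of the 66 (4.55%, against 3.28% of all) and the KLF letters in 17 (25.8%, against 15.9%). Overlapping entries of Gstm1 and of Gstt3 hold the same KLF site, which is counted again in the 17. By gene, the KLF letters stood in 15 of 49. Of the 8 genes that rose in any of the 3 comparisons described below, 3 held the antioxidant letters (G6pdx, Gsta3 and Txnrd1), against 0 of the 4 that fell and had an entry and 5 of the other 37 with one. The KLF letters stood in 3 of the 8, 2 of the 4 and 10 of the 37, and the NR5A2 letters in 0, 1 (Nqo2) and 2. The promoters of Gsta3 (chr1:21240335-21240584, plus strand), of Txnrd1 (chr10:82858956-82859205, plus strand) and of Idh1 (chr1:65186480-65186729, minus strand), and the stretch of the G6pdx promoter around its match (chrX:74428919-74428947, minus strand), are printed since these genes carry the results below. Capitals mark the antioxidant letters, 121 bases before the start in Gsta3, 92 in Txnrd1 and 57 in G6pdx, and in Txnrd1 also the KLF letters 47 bases before it. Idh1 had no match to any of these motifs in this window. A match is a match of letters only. The counts by direction are per gene and not per promoter. They were not made for all genes that rose or fell, so they show nothing particular to these genes.
Gsta3: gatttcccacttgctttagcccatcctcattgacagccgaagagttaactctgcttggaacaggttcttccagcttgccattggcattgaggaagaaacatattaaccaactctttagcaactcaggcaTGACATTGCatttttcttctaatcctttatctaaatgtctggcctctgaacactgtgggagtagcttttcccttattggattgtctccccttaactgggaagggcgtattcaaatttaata
Txnrd1: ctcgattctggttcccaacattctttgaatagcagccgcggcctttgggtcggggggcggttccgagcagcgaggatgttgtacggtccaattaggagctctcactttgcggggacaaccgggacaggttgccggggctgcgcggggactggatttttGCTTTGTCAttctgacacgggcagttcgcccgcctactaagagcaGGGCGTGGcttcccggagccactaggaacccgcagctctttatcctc
Idh1: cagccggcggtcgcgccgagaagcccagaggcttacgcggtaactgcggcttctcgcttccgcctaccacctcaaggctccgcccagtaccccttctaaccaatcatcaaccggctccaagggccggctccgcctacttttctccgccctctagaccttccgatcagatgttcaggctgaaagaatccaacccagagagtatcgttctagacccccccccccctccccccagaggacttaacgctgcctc
G6pdx: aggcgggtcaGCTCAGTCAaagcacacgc

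In control embryos the mRNA of the peroxiredoxins and of 2 glutathione peroxidases, Gpx1 and Gpx4, was the most abundant of these genes. Levels of different genes were compared as CPM per kb of exon, the mean of the 2 control libraries. Prdx1, a cytosolic peroxiredoxin, led with 333 ± 17.3 CPM per kb (SD, n = 2), above 98.3% of the 14830 genes that passed a filter on low counts over the 12 libraries. Gpx1, the cytosolic peroxidase, followed with 213 ± 18.1, Gpx4, which acts on lipid peroxides in membranes, with 181 ± 19.1 and the mitochondrial peroxiredoxin Prdx3 with 109 ± 9.39 CPM per kb (SD, n = 2 each). The steps between these 4 genes were larger than the SD of either neighbour. In summed CPM, the 6 peroxiredoxins held 58.9% and the 8 glutathione peroxidases 21.5% of the level of all 54 genes, against 5.93% for 22 glutathione S-transferases. Prdx1 alone held 34.8%. Gpx1 and Gpx4 carried the level of the peroxidases, since the other 6 were at 1.66 CPM per kb or less, below transferases such as Gsto1 (38.6) and Gstp1 (31).

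All 6 peroxiredoxins were above 40 CPM per kb, from 40.6 in Prdx6 to 333. Among the other families the highest member was Txn1, cytosolic thioredoxin, with 39.9 CPM per kb, Gsto1, an omega class transferase, with 38.6, glutathione reductase (Gsr) with 27.5, Idh1 with 21, Blvrb, a biliverdin and flavin reductase, with 5.75 and the microsomal transferase Mgst3 with 3.86. Prdx2, Prdx4, Prdx6, Txn1, Gsto1 and Txn2 came next to each other between 35.4 and 44.8, and the steps between them were smaller than the SD of the larger spread. At the other end, 24 of the 54 genes were under 1 CPM per kb. Of these, Gpx8, Gstm3, Gstt4 and Mgst1 had no count in either control library. The genes of glutathione synthesis were low, with 2.06 CPM per kb for Gclm, 1.69 for Gclc and 0.233 for Gss.

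**Figure D1:**
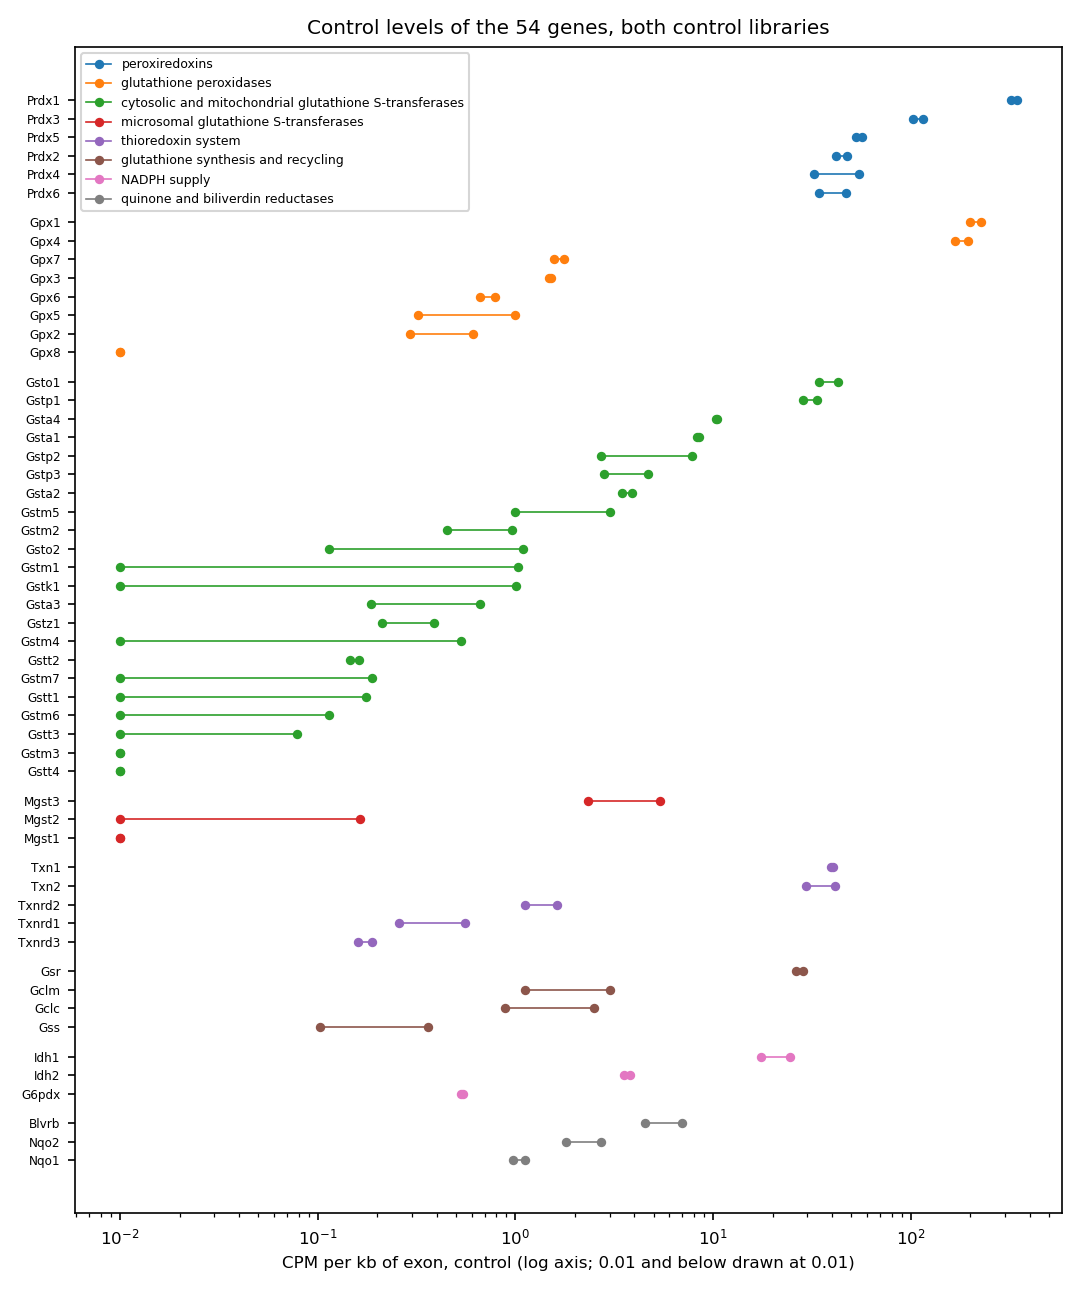
Levels of the 54 genes in control embryos, in CPM per kb of exon on a log axis, with 1 point for each of the 2 control libraries joined by a line and 1 colour for each family. Prdx1, Gpx1, Gpx4 and Prdx3 are above 100 CPM per kb, and 24 genes are under 1; values of 0.01 or less are drawn at 0.01.

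Of the 54 genes, 44 passed the filter over the 12 libraries. The other 10 stayed at a group mean of 1.29 CPM or less in every group, so no change in them was detectable at this depth. Because a gene near 0 in control passes the filter only if it is high in another group, the counts below are over those tested and not over all 54. The summed level of the 54 genes was 2898 and 2924 CPM in control, 4001, 3612 and 2910 in Nr5a2 KD, 3585, 2594 and 3021 in Klf5 KD and 3036, 3814, 3073 and 2511 in dKD. The control libraries lay close together and the knockdown groups spread around and above them, and each knockdown group had a library below the higher control value. In a pool of embryos, fewer cells with a transcript and less of it in each cell cannot be told apart.

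After Nr5a2 KD, Idh1 fell, and G6pdx, Gpx2, Gsto1, Mgst3 and Txn1 rose. That is 1 lower and 5 higher of 41 tested, or 2.44% and 12.2%, where 5.32% of all 13262 genes tested fell and 3.72% rose (edgeR's quasi-likelihood test, adjusted p under 0.05). The median log2 fold change was 0.37 over the 41 and 0.04 over all genes tested. With a mean of at least 50 counts it was 0.25 over 22 of these genes and 0.04 over all. In dKD against control, 2 of 43 tested fell (Idh1 and Gpx4) and 4 rose (G6pdx, Gpx2, Gsta3 and Mgst3), or 4.65% and 9.3%, against 4.59% and 3.75% of 13724 genes, with a median of 0.25 against 0.05. With a mean of at least 50 counts the median in dKD was 0.0454 over 21 of these genes and 0.0445 over all, so the shift was not seen there. With library sizes from the ERCC spike-ins, a scaling that raised the median of all genes to 0.84, the split was 1 lower and 13 higher, while 1.33% of all genes were then called lower and 21.2% higher. Both comparisons use the same 2 control libraries, and the dKD counts dropped to 1 lower and 1 higher without control replicate 1 (Idh1 and Gsta3) and to 1 and 0 without control replicate 2 (Idh1), beside 0.597% and 0.269% and 0.689% and 0.437% of all genes. Either leaves 1 control library, so the spread then comes from the knockdown libraries alone. The Nr5a2 KD counts were 1 and 4 when control replicate 1 was left out and 1 and 2 when control replicate 2 was, beside 1.40% and 0.773% and 1.27% and 0.828% of all genes.

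The comparison of dKD with Klf5 KD differs by the Nr5a2 siRNA and shares no library with that of Nr5a2 KD and control. The 2 are not fully independent, since dKD and Nr5a2 KD libraries of the same number deviated together (correlations of 0.13, 0.221 and 0.254 over genes). Klf5 mRNA was also lower in dKD (mean 56.1 CPM) than in Klf5 KD (111), just short of the threshold (log2 fold change -0.98, adjusted p = 0.0507, edgeR). In dKD against Klf5 KD, 5 of 39 tested fell (Idh1, Gpx4, Gsta4, Nqo2 and Prdx3) and 5 rose (Gpx2, Gsta3, Gss, Mgst3 and Txnrd1), 12.8% each way, against 6.73% and 5.91% of 12904 genes. The median was 0.16 over these genes and 0.02 over all. With a mean of at least 50 counts it was 0.0194 over 23 of these genes and 0.0175 over all, so the shift was not seen there either. The split was 4 and 7 with total counts as library sizes, where 4.49% of all genes were called lower and 9.60% higher. Idh1 fell and Gpx2 and Mgst3 rose in both comparisons, which is 3 of the 6 genes that passed in the first and 3 of the 10 in the second, and no gene passed in opposite directions. Across the 39 genes tested in both, 30 had log2 fold changes of the same sign and Pearson's r was 0.88. This r is across genes that share libraries within each comparison, and genes are not independent replicates. The overlap, the shared signs and r were not worked out for all genes, so they show nothing particular to these 39.

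**Figure D2:**
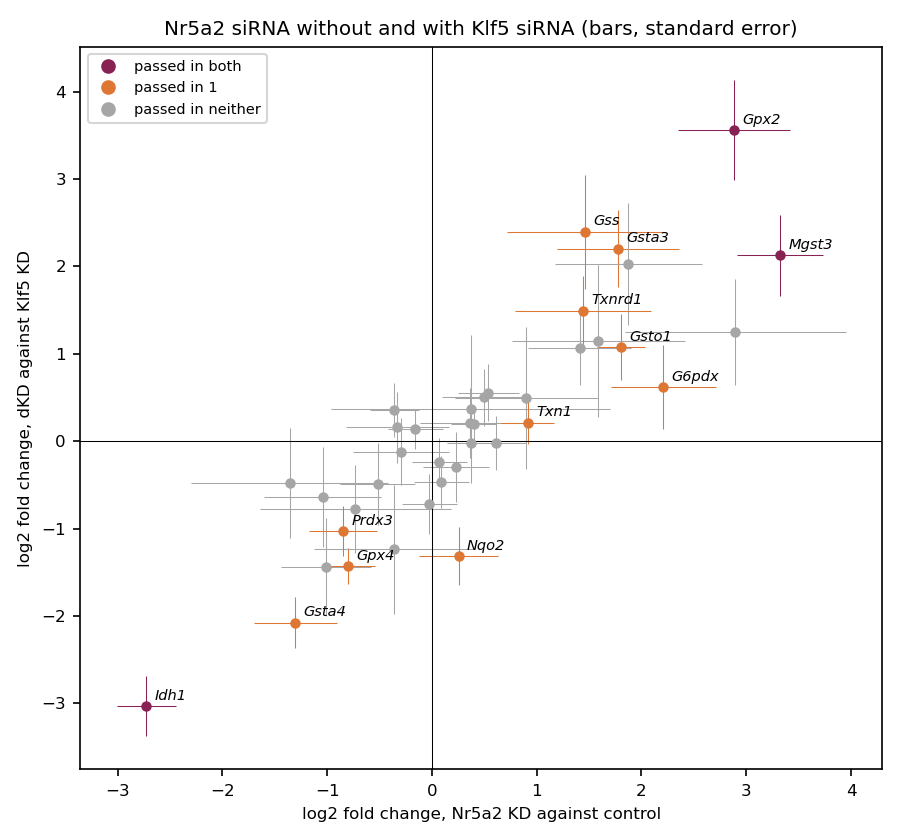
Log2 fold changes of the 39 genes tested in both comparisons, Nr5a2 KD against control on the x axis and dKD against Klf5 KD on the y axis, with standard errors as bars and colours for the number of comparisons in which a gene passed. Idh1 lies at the lower left and Gpx2 and Mgst3 at the upper right, and Nqo2 is low on the y axis only.

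NADPH supply held the change with the smallest adjusted p of these genes in all 3 comparisons, and the 2 genes that passed moved in opposite directions. Idh1 (chr1:65158616-65186500) encodes the cytosolic and peroxisomal isocitrate dehydrogenase. It was at 68.2 and 48.3 in control, 8.73, 6.89 and 10.2 in Nr5a2 KD, 109.6, 61 and 53 in Klf5 KD and 13.5, 7.94, 5.43 and 9.21 in dKD (CPM in each library). The 7 libraries with Nr5a2 siRNA lay between 5.43 and 13.5, and the 5 without it at 48.3 or higher, with no overlap. Its mean was 58.3 ± 14.1 (SD, n = 2) in control and 8.6 ± 1.65 (SD, n = 3) in Nr5a2 KD, or 14.8% (log2 change -2.73 with SE 0.281, adjusted p = 0.000435, edgeR). In dKD it was at 15.5% of control (log2 change -2.65 with SE 0.317, adjusted p = 0.00154) and was 8.19-fold lower than in Klf5 KD (log2 change -3.03 with SE 0.342, adjusted p = 0.000288, edgeR). These 3 calls held under every alternative run, whichever library was left out, and none of its exon sequence is shared with another gene over 50 bases. Its mitochondrial counterpart Idh2 was at 68.5% of control in Nr5a2 KD and 65.5% in dKD and passed no test (edgeR adjusted p = 0.417 and 0.474).

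G6pdx (chrX:74409483-74429194) encodes the first enzyme of the pentose phosphate pathway. It was at 1.64 and 1.68 in control, 5.84, 9.57 and 6.91 in Nr5a2 KD, 6.66, 3.19 and 1.32 in Klf5 KD and 5.44, 7.52, 4.49 and 5.79 in dKD (CPM in each library). All Nr5a2 KD and dKD libraries were above both controls, and the Klf5 KD libraries were spread from below control to the range of the other knockdowns. It rose 4.61-fold in Nr5a2 KD (log2 change 2.21 with SE 0.502, adjusted p = 0.0186, edgeR) and 3.6-fold in dKD (log2 change 1.85 with SE 0.464, adjusted p = 0.0324, edgeR). Against Klf5 KD the difference was not past the test (log2 fold change 0.62, adjusted p = 0.457). The gene held only 9 to 74 counts in a library. By edgeR the call in Nr5a2 KD was lost without control replicate 1 (log2 2.22, adjusted p = 0.121), control replicate 2 (log2 2.18, adjusted p = 0.125) and Nr5a2 KD replicate 2 (log2 1.99, adjusted p = 0.057), and that in dKD without control replicate 1 (log2 1.87, adjusted p = 0.187), control replicate 2 (log2 1.83, adjusted p = 0.198), dKD replicate 2 (log2 1.71, adjusted p = 0.06) and dKD replicate 4 (log2 1.85, adjusted p = 0.0722) and with all 12 libraries in 1 fit (1.81, adjusted p = 0.0586). Of its exon bases 13.6% overlap Ikbkg, with which read pairs were shared.

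**Figure D3:**
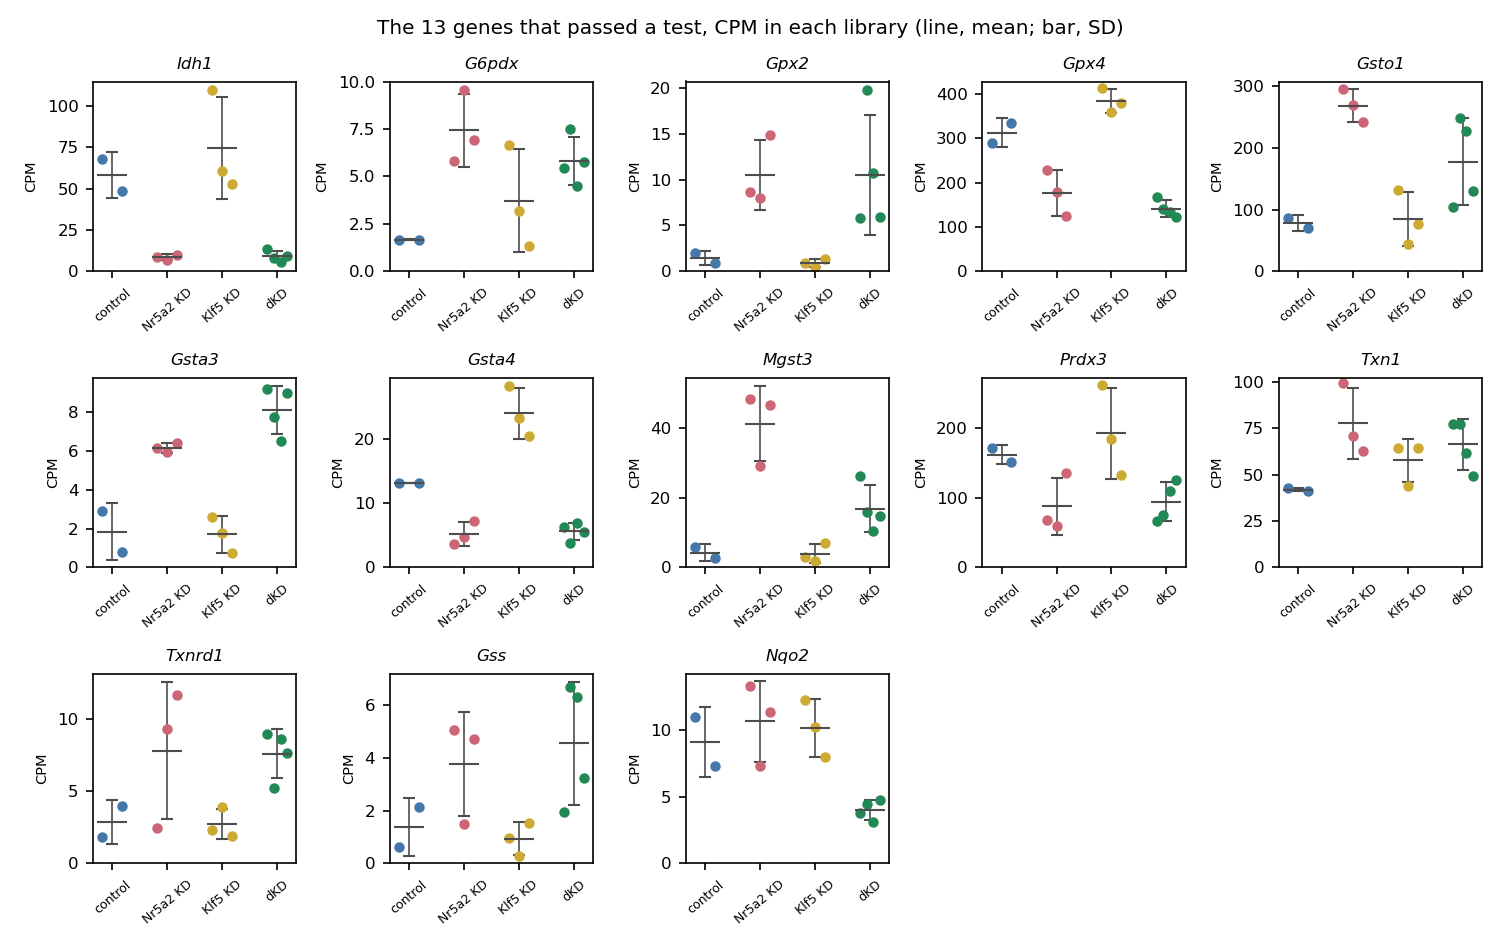
CPM of the 13 genes that passed a test in any of 3 comparisons, 1 panel for each gene with its own axis from 0, showing each library as a point for control (2 libraries), Nr5a2 KD (3), Klf5 KD (3) and dKD (4), with the mean and SD. In the Idh1 panel the 7 libraries with Nr5a2 siRNA are at 13.5 CPM or less, below all 5 others.

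Of the glutathione peroxidases, Gpx2 rose in all 3 comparisons and Gpx4 fell in both that involve dKD. That is 1 higher of 6 tested in Nr5a2 KD, and 1 each way of 7 in dKD and of 6 in dKD against Klf5 KD, numbers too small to be set against the shares of all genes given above. Gpx2 (chr12:76792333-76795554) is the peroxidase best known from the gut epithelium. It was at 1.97 and 0.939 in control, 8.61, 7.99 and 14.8 in Nr5a2 KD, 0.9, 0.473 and 1.32 in Klf5 KD and 5.82, 19.7, 10.8 and 5.9 in dKD (CPM in each library). The 7 libraries with Nr5a2 siRNA were all above the 5 without, though from low levels. It rose 7.38-fold in Nr5a2 KD (log2 change 2.88 with SE 0.536, adjusted p = 0.00726), 7.42-fold in dKD against control (log2 change 2.89 with SE 0.639, adjusted p = 0.0186) and 11.8-fold against Klf5 KD (log2 change 3.56 with SE 0.571, adjusted p = 0.00202, all edgeR). It held 4 to 139 counts in a library. The call against control was lost in Nr5a2 KD without control replicate 2 (log2 2.44, adjusted p = 0.0772) and in dKD without control replicate 1 (log2 3.49, adjusted p = 0.0878) and control replicate 2 (log2 2.45, adjusted p = 0.186), by edgeR. In Nr5a2 KD the change was 3.48, adjusted p = 0.0307 without control replicate 1 (log2, edgeR). The call against Klf5 KD held without each library.

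Gpx4 (chr10:80047166-80056439) encodes the peroxidase that reduces phospholipid hydroperoxides inside membranes and whose loss leads to ferroptosis. It was at 289 and 336 in control, 228, 178 and 125 in Nr5a2 KD, 414, 359 and 379 in Klf5 KD and 168, 141, 134 and 124 in dKD (CPM in each library). Every Nr5a2 KD and dKD library was below every control and Klf5 KD library, and the Klf5 KD libraries were all above control. It fell to 45.3% of control in dKD (log2 change -1.10 with SE 0.198, adjusted p = 0.00768, edgeR) and fell 2.69-fold against Klf5 KD (log2 change -1.43 with SE 0.205, adjusted p = 0.00108, edgeR). In Nr5a2 KD it was at 56.7% of control, which did not pass by edgeR (log2 fold change -0.80, adjusted p = 0.0744). It passed there with DESeq2 (-0.80, adjusted p = 0.0331, log2), with no filter (-0.79, adjusted p = 0.0268) and without Nr5a2 KD replicate 1 (-1.001, adjusted p = 0.0499, edgeR). The call in dKD against control was lost without control replicate 1 (log2 -1.21, adjusted p = 0.0721) and control replicate 2 (log2 -0.98, adjusted p = 0.13), and with ERCC library sizes, where Gpx4 was at -0.32 (adjusted p = 0.402, edgeR) and the median of all genes at 0.84. Of its 50-base words 34.7% also occur in other genes, Gpx4-ps2 among them, and read pairs that map to several places were not counted.

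Gpx1, the most abundant gene of this family per kb, did not pass by edgeR in any comparison with TMM library sizes, and passed as higher in dKD with ERCC counts (log2 1.05, adjusted p = 0.0498), where the median of all genes was 0.84. It was at 325 and 288 in control, 442, 363 and 384 in Nr5a2 KD, 349, 296 and 283 in Klf5 KD and 328, 315, 398 and 363 in dKD (CPM in each library). The 3 Nr5a2 KD libraries were above both controls while the other groups overlapped them (log2 fold change 0.40, adjusted p = 0.286 in Nr5a2 KD, log2 fold change 0.24, adjusted p = 0.509 in dKD and log2 fold change 0.19, adjusted p = 0.594 in dKD against Klf5 KD, edgeR). The difference in dKD had a 95% interval from -0.20 to 0.67, which does not reach the -1.10 of Gpx4. Gpx7, a peroxidase of the endoplasmic reticulum, did not pass either (log2 fold change 1.41, adjusted p = 0.0996, log2 fold change 1.58, adjusted p = 0.0599 and log2 fold change 1.06, adjusted p = 0.124 in the same order), but was higher in dKD with DESeq2, total or ERCC counts, the mitochondrial covariate or a replicate block, and in Nr5a2 KD with ERCC counts. The other 4 genes of this family were at 5.53 CPM or less in every library. Of these, Gpx5 was higher in dKD against Klf5 KD with DESeq2 (log2 2.03, adjusted p = 0.0335), total counts, no filter or the mitochondrial covariate. Gpx8 was higher there with no filter or all 12 libraries in 1 fit.

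Most of the 22 glutathione S-transferases were too low to test or did not pass. Nr5a2 KD gave 1 higher of 13 tested and dKD 1 higher of 13, beside 3.72% and 3.75% of all genes. In dKD against Klf5 KD 1 of 12 rose and 1 fell, beside 5.91% and 6.73%. At these numbers a single gene is already above the share of all genes, so the counts say nothing about the family. Gsto1 (chr19:47854970-47864790), an enzyme with dehydroascorbate reductase activity, was at 86.8 and 69.4 in control, 294, 268 and 242 in Nr5a2 KD, 132, 44.9 and 76.5 in Klf5 KD and 105, 248, 226 and 129.8 in dKD (CPM in each library). The Nr5a2 KD libraries were together and the dKD libraries in 2 pairs, 1 pair close to the highest Klf5 KD library. It rose 3.49-fold in Nr5a2 KD (log2 change 1.80 with SE 0.234, adjusted p = 0.00106, edgeR), a call that held under every alternative and with each library left out. In dKD it missed the threshold by edgeR against control (log2 fold change 1.22, adjusted p = 0.0541) and against Klf5 KD (log2 fold change 1.08, adjusted p = 0.0826), although all 4 dKD libraries were above both controls. DESeq2 called it higher in both (1.21, adjusted p = 0.00671 and 1.06, adjusted p = 0.0406, log2), as did edgeR with total counts or no filter. Without dKD replicate 1 it passed in both (1.41, adjusted p = 0.0151 and 1.27, adjusted p = 0.0448), and without Klf5 KD replicate 1 against Klf5 KD (1.58, adjusted p = 0.029, edgeR).

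Gsta3 and Gsta4 both belong to the alpha class. Gsta3 (chr1:21240589-21265661) was at 2.88 and 0.805 in control, 6.13, 5.92 and 6.41 in Nr5a2 KD, 2.61, 1.77 and 0.734 in Klf5 KD and 9.17, 7.73, 6.5 and 8.98 in dKD (CPM in each library). The 7 libraries with Nr5a2 siRNA were above the 5 without. It rose 4.52-fold in dKD against control (log2 change 2.18 with SE 0.517, adjusted p = 0.0253, edgeR) and 4.61-fold against Klf5 KD (log2 change 2.20 with SE 0.442, adjusted p = 0.00621, edgeR), and in Nr5a2 KD it did not pass by edgeR (log2 fold change 1.78, adjusted p = 0.0823) except with no filter or ERCC counts. It held 5 to 76 counts in a library, and the call against control was lost without control replicate 2 (log2 1.52, adjusted p = 0.206) and dKD replicate 4 (log2 2.12, adjusted p = 0.0614). Without control replicate 1 the change was 3.33, adjusted p = 0.0453 (log2, edgeR).

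Gsta4 (chr9:78182774-78209349), which conjugates the lipid peroxidation product 4-hydroxynonenal, was at 13.2 and 13.2 in control, 3.66, 4.68 and 7.29 in Nr5a2 KD, 28.3, 23.3 and 20.4 in Klf5 KD and 6.32, 3.83, 6.85 and 5.55 in dKD (CPM in each library). Libraries with Nr5a2 siRNA were all below control and those of Klf5 KD all above it. It fell 4.22-fold in dKD against Klf5 KD (log2 change -2.08 with SE 0.293, adjusted p = 0.00105, edgeR), and this held under every alternative and with each library left out. Against control it did not pass by edgeR in Nr5a2 KD (log2 fold change -1.30, adjusted p = 0.0606), dKD (log2 fold change -1.18, adjusted p = 0.0534) or Klf5 KD (log2 fold change 0.88, adjusted p = 0.544). DESeq2 called it lower in Nr5a2 KD (-1.32, adjusted p = 0.0435) and dKD (-1.19, adjusted p = 0.0291, log2), as did edgeR with no filter or with all 12 libraries in 1 fit. Without Nr5a2 KD replicate 3 it also passed in Nr5a2 KD (-1.63, adjusted p = 0.0186, edgeR). Gsta1 and Gsta2 share 90.5% and 49.8% of their 50-base words with other genes, so their values, at 8.28 CPM or less, are uncertain, and neither passed, though Gsta1 passed as lower in dKD with no filter and without dKD replicate 1 (-2.47, adjusted p = 0.0134 against control and -2.18, adjusted p = 0.0176 against Klf5 KD, edgeR).

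Mgst3 showed the largest fold change of these genes in Nr5a2 KD among those that passed. It encodes a membrane enzyme of the endoplasmic reticulum with transferase and peroxidase activity (chr1:167371966-167393841). It was at 5.91 and 2.55 in control, 48.2, 28.9 and 46.5 in Nr5a2 KD, 2.88, 1.89 and 7.05 in Klf5 KD and 26.3, 15.7, 10.5 and 14.6 in dKD (CPM in each library). The Nr5a2 KD libraries were highest, the dKD libraries lay between them and the rest, and no library of these groups overlapped control or Klf5 KD. It rose 10.0-fold in Nr5a2 KD (log2 change 3.32 with SE 0.407, adjusted p = 0.000836, edgeR), 4.09-fold in dKD against control (log2 change 2.03 with SE 0.464, adjusted p = 0.0215) and 4.37-fold against Klf5 KD (log2 change 2.13 with SE 0.467, adjusted p = 0.01). Single libraries moved these values. Without control replicate 1 the change in Nr5a2 KD was 4.02, adjusted p = 0.00577, and without Klf5 KD replicate 3 that in dKD against Klf5 KD was 2.77, adjusted p = 0.00342 (log2, edgeR). The call in dKD against control was lost without control replicate 1 (log2 2.74, adjusted p = 0.0651) and control replicate 2 (log2 1.54, adjusted p = 0.219) by edgeR. All 4 dKD libraries were below the 3 of Nr5a2 KD, but over 13017 genes this difference did not pass (log2 fold change -1.30, adjusted p = 0.999, edgeR), where it had an unadjusted p of 0.00102. Its relatives Mgst1 and Mgst2 stayed at 1.51 CPM or less in every library.

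Among the peroxiredoxins mitochondrial Prdx3 passed in dKD against Klf5 KD, and calls against control appeared with other settings. Prdx3 (chr19:60864051-60874556) was at 171 and 152 in control, 67.9, 59.8 and 135 in Nr5a2 KD, 261, 184 and 132 in Klf5 KD and 67, 74.6, 109.6 and 125 in dKD (CPM in each library). Libraries with Nr5a2 siRNA were below both controls, and 1 of Nr5a2 KD was within the range of Klf5 KD. It fell 2.04-fold in dKD against Klf5 KD (log2 change -1.02 with SE 0.285, adjusted p = 0.0313, edgeR), and did not pass by edgeR in Nr5a2 KD (log2 fold change -0.85, adjusted p = 0.13) or dKD against control (log2 fold change -0.74, adjusted p = 0.114) except with no filter or the settings given next. The call was lost without Klf5 KD replicate 1 (log2 -0.71, adjusted p = 0.163), Klf5 KD replicate 2 (log2 -1.08, adjusted p = 0.094), dKD replicate 1 (log2 -0.89, adjusted p = 0.0727) and dKD replicate 2 (log2 -0.92, adjusted p = 0.0881), with total counts (-0.79, adjusted p = 0.0881) and with ERCC counts as library sizes (-0.87, adjusted p = 0.305). Prdx1 was at 976 and 1050 in control, 1856, 1656 and 846 in Nr5a2 KD, 850.0, 623 and 1169 in Klf5 KD and 1428, 1999, 973 and 737 in dKD (CPM), with a spread in Nr5a2 KD and dKD that covered the controls, and did not pass (log2 fold change 0.54, adjusted p = 0.295 and log2 fold change 0.38, adjusted p = 0.523, edgeR). Without Nr5a2 KD replicate 3 both passed in Nr5a2 KD, Prdx1 as higher (0.82, adjusted p = 0.00607) and Prdx3 as lower (-1.31, adjusted p = 0.00137, edgeR). With the mitochondrial share as a covariate, Prdx1 was higher and Prdx3 lower in Nr5a2 KD (log2 1.03, adjusted p = 0.0304 and log2 -1.62, adjusted p = 0.0038) and in dKD (log2 0.84, adjusted p = 0.0181 and log2 -1.21, adjusted p = 0.00296). A replicate block gave the same calls in Nr5a2 KD (log2 0.80, adjusted p = 0.00998 and log2 -1.33, adjusted p = 0.00338). It also did in dKD (log2 0.76, adjusted p = 0.000136 and log2 -1.17, adjusted p = 0.000118, edgeR). With ERCC counts as library sizes Prdx1 and Prdx5 were higher in dKD (log2 1.07, adjusted p = 0.0279 and log2 1.27, adjusted p = 0.0415), and Prdx3 was at log2 0.08, adjusted p = 0.928 in Nr5a2 KD and log2 0.12, adjusted p = 0.847 in dKD.

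Within the thioredoxin system, Txn1 rose in Nr5a2 KD and the reductase Txnrd1 in dKD against Klf5 KD. Txn1 (chr4:57943373-57956411) was at 42.6 and 41.3 in control, 99.4, 71 and 62.9 in Nr5a2 KD, 64.3, 43.9 and 64.6 in Klf5 KD and 77.3, 77.4, 61.4 and 49.1 in dKD (CPM in each library). Each knockdown library was above both controls, those of Klf5 KD included. The change in Nr5a2 KD was 1.88-fold (log2 change 0.91 with SE 0.253, adjusted p = 0.0438, edgeR), under 2-fold and close to the threshold. It was lost without control replicate 1 (log2 0.92, adjusted p = 0.279), control replicate 2 (log2 0.89, adjusted p = 0.297), Nr5a2 KD replicate 1 (log2 0.72, adjusted p = 0.128) and Nr5a2 KD replicate 2 (log2 0.98, adjusted p = 0.0535) and with all 12 libraries in 1 fit (0.89, adjusted p = 0.0763). It did not pass by edgeR in dKD (log2 fold change 0.70, adjusted p = 0.105) or in Klf5 KD (log2 fold change 0.46, adjusted p = 0.66), though it did in dKD with ERCC counts, the mitochondrial covariate or the replicate block (log2 0.90, adjusted p = 0.00807).

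Txnrd1 (chr10:82833951-82897712), the cytosolic selenoenzyme that reduces Txn1, was at 1.82 and 3.96 in control, 2.48, 9.37 and 11.7 in Nr5a2 KD, 2.34, 3.9 and 1.91 in Klf5 KD and 8.98, 5.25, 8.62 and 7.68 in dKD (CPM in each library). All dKD libraries were above control and Klf5 KD, while 1 Nr5a2 KD library stayed within the control range. It rose 2.82-fold in dKD against Klf5 KD (log2 change 1.49 with SE 0.397, adjusted p = 0.0257, edgeR), and did not pass by edgeR in dKD against control (log2 fold change 1.41, adjusted p = 0.0825) or in Nr5a2 KD (log2 fold change 1.44, adjusted p = 0.198). In dKD against control it passed with DESeq2 (1.40, adjusted p = 0.0455, log2) and with ERCC counts. It held 12 to 93 counts in a library. The call was lost without Klf5 KD replicate 1 (log2 1.41, adjusted p = 0.079), Klf5 KD replicate 3 (log2 1.29, adjusted p = 0.0804), dKD replicate 1 (log2 1.41, adjusted p = 0.054), dKD replicate 3 (log2 1.44, adjusted p = 0.06) and dKD replicate 4 (log2 1.50, adjusted p = 0.0564), with ERCC counts as library sizes (1.62, adjusted p = 0.0626) and with all 12 libraries in 1 fit (1.48, adjusted p = 0.0527). Mitochondrial Txn2 and Txnrd2 passed no test (log2 fold change -0.16, adjusted p = 0.775 and log2 fold change -0.30, adjusted p = 0.752 in Nr5a2 KD, log2 fold change 0.06, adjusted p = 0.918 and log2 fold change -0.08, adjusted p = 0.933 in dKD).

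Of the 4 genes of glutathione synthesis and recycling, Gss alone passed. Gss (chr2:155563181-155592810), glutathione synthetase, was at 0.606 and 2.15 in control, 5.07, 1.49 and 4.71 in Nr5a2 KD, 0.945, 0.295 and 1.54 in Klf5 KD and 1.94, 6.69, 6.3 and 3.25 in dKD (CPM in each library). The dKD libraries were above all of Klf5 KD and overlapped control. It rose 5.27-fold against Klf5 KD (log2 change 2.40 with SE 0.653, adjusted p = 0.0286, edgeR), at 2.5 to 53.3 counts in a library. The call was lost without Klf5 KD replicate 1 (log2 2.48, adjusted p = 0.0803), Klf5 KD replicate 2 (log2 1.95, adjusted p = 0.105), dKD replicate 2 (log2 2.16, adjusted p = 0.0746) and dKD replicate 3 (log2 2.21, adjusted p = 0.0658). Of its exon bases 15.4% overlap other genes. Glutathione reductase was at 72.7 and 78.9 in control, 54, 69.3 and 51.1 in Nr5a2 KD, 27.7, 56.9 and 63.4 in Klf5 KD and 81.2, 68.9, 49.7 and 50.7 in dKD (CPM), and Klf5 KD replicate 1 had the lowest value. It did not pass in Nr5a2 KD (log2 fold change -0.36, adjusted p = 0.382), dKD (log2 fold change -0.24, adjusted p = 0.596) or Klf5 KD (log2 fold change -0.63, adjusted p = 0.622). The rate-limiting ligase genes did not pass either (log2 fold change -0.33, adjusted p = 0.747 for Gclc and log2 fold change 0.50, adjusted p = 0.5 for Gclm in Nr5a2 KD, log2 fold change 0.42, adjusted p = 0.607 and log2 fold change 0.74, adjusted p = 0.289 in dKD).

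Among the quinone and biliverdin reductases Nqo2 alone passed, and only in dKD against Klf5 KD. Nqo2 (chr13:33964687-33988443) encodes a quinone reductase that uses dihydronicotinamide riboside. It was at 10.9 and 7.25 in control, 13.3, 7.3 and 11.3 in Nr5a2 KD, 12.2, 10.2 and 7.93 in Klf5 KD and 3.79, 4.47, 3.07 and 4.72 in dKD (CPM in each library). The 4 dKD libraries were below the 8 others, and those of control, Nr5a2 KD and Klf5 KD overlapped. How many of all genes separate in this way was not counted. It fell 2.49-fold against Klf5 KD (log2 change -1.32 with SE 0.333, adjusted p = 0.0204, edgeR), and did not pass against control (log2 fold change -1.13, adjusted p = 0.0871) or against Nr5a2 KD (log2 fold change -1.39, adjusted p = 0.999, unadjusted p = 0.00104). The interaction of the knockdowns was -1.56 for this gene, with an unadjusted p of 0.00577 and an adjusted p of 0.95 by edgeR, so that departure from the sum of both knockdowns was not shown. The call against Klf5 KD was lost without Klf5 KD replicate 1 (log2 -1.13, adjusted p = 0.0817), Klf5 KD replicate 2 (log2 -1.34, adjusted p = 0.0586) and dKD replicate 3 (log2 -1.20, adjusted p = 0.0592) and with ERCC counts as library sizes (-1.21, adjusted p = 0.113). Of its exon bases 18.9% overlap Serpinb6a. Blvrb was at 19.4 and 12.6 in control, 24.8, 22.6 and 24.5 in Nr5a2 KD, 16.4, 11.9 and 8.37 in Klf5 KD and 10.2, 13.2, 10.5 and 14.2 in dKD (CPM), with the 3 Nr5a2 KD libraries above all 9 others, and did not pass in Nr5a2 KD (log2 fold change 0.61, adjusted p = 0.222). The lower value of dKD against Nr5a2 KD did not pass either (log2 fold change -0.99, adjusted p = 0.999). Nqo1, the best known NRF2 target, did not pass in Nr5a2 KD (log2 fold change 0.90, adjusted p = 0.471) or dKD (log2 fold change 0.69, adjusted p = 0.585) against control, or in dKD against Klf5 KD (log2 fold change 0.50, adjusted p = 0.752).

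Klf5 siRNA gave no passing change among these genes, alone or on top of Nr5a2 siRNA. In Klf5 KD against control, 0 of 37 tested passed by edgeR (1 at an unadjusted p under 0.05, Gsta4), where 0% of 12838 genes fell and 0% rose and 1088 were under an unadjusted 0.05. DESeq2 called 0 of these genes and 50 genes in all. In dKD against Nr5a2 KD, 0 of 43 passed by edgeR (5 at an unadjusted p under 0.05) among 0% lower and 0% higher of 13017, where 447 were under an unadjusted 0.05, and DESeq2 called 0 of them and 4 genes in all. Klf5 itself, the target of this siRNA, did not pass there either. Its mean was 139.6 CPM in Nr5a2 KD and 56.1 in dKD (log2 fold change -1.31, adjusted p = 0.999, edgeR). The intervals were wide for low genes. For Idh1 the difference in Klf5 KD was 0.37 (95% interval -0.39 to 1.14), for Prdx1 -0.20 (95% interval -0.79 to 0.40), for Gpx4 0.30 (95% interval -0.23 to 0.84) and for Mgst3 -0.11 (95% interval -1.45 to 1.22), all log2. In dKD against Nr5a2 KD it was 0.07 (95% interval -0.67 to 0.80) for Idh1 and 0.00 (95% interval -0.94 to 0.95) for Gpx2. The interaction over 12 libraries passed for 0 of 44 (2 at an unadjusted p under 0.05) and for 0 of 14830 genes by edgeR, with 715 of those under an unadjusted 0.05, and DESeq2 passed 0 of the 44 and 3 genes in all.

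Genes next to these systems were taken from a mixed list of 55. It covers NRF2 with its regulators and partners, catalase and the superoxide dismutases, heme oxygenases, sestrins, glutaredoxins and related redoxins, the pentose phosphate pathway and other NADPH sources, cystine and cysteine supply, glutathione export and breakdown, glyoxalases, methionine sulfoxide reductases and selenoprotein synthesis. In Nr5a2 KD, 1 of 45 tested fell and 4 rose, beside 5.32% and 3.72% of all genes. Slc3a2, the heavy chain of the cystine transporter, was at 17.6 and 7.11 in control, 56.7, 38 and 66.6 in Nr5a2 KD, 33.5, 13.1 and 13.4 in Klf5 KD and 49.9, 39.5, 71.6 and 47.2 in dKD (CPM in each library). All libraries with Nr5a2 siRNA were above the others (log2 fold change 2.16, adjusted p = 0.00625 in Nr5a2 KD, log2 fold change 2.13, adjusted p = 0.00861 in dKD and log2 fold change 1.38, adjusted p = 0.0212 in dKD against Klf5 KD, edgeR). Chac1, which breaks glutathione down in the cytosol, had 2 counts over both controls, 95 in Nr5a2 KD, 9 in Klf5 KD and 86 in dKD. That is a ratio of 28.2 in Nr5a2 KD (7.58 to 236, 95% exact counting interval) and of 18.9 in dKD (5.09 to 159), and it rose in both (edgeR adjusted p = 0.0136 and 0.0182) and against Klf5 KD (adjusted p = 0.0206).

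The exporter Abcc1 (log2 fold change 2.00, adjusted p = 0.0412) and Oplah, which recycles 5-oxoproline from glutathione (log2 fold change 1.17, adjusted p = 0.0231), rose in Nr5a2 KD, and Me1, the cytosolic malic enzyme and another source of NADPH, fell (log2 fold change -1.19, adjusted p = 0.047, edgeR). These 3 did not pass in dKD against control (log2 fold change 1.80, adjusted p = 0.0932, log2 fold change 0.82, adjusted p = 0.145 and log2 fold change -0.75, adjusted p = 0.133). In dKD against control 1 of 46 fell, the thioredoxin-like Txndc17 (log2 fold change -0.82, adjusted p = 0.0374), and 2 rose, beside 4.59% and 3.75% of all genes. In dKD against Klf5 KD 3 of 45 fell, namely Glrx5 of mitochondrial iron-sulfur assembly (log2 fold change -1.41, adjusted p = 0.00543), Taldo1 of the pentose phosphate pathway (log2 fold change -0.95, adjusted p = 0.0369) and Adh5, which reduces S-nitrosoglutathione (log2 fold change -0.999, adjusted p = 0.0388), and 2 rose, beside 6.73% and 5.91% of all genes. The medians over the list were 0.20, 0.09 and -0.12 in the 3 comparisons, beside 0.04, 0.05 and 0.02 over all genes. In Klf5 KD and in dKD against Nr5a2 KD, 0 of 45 passed by edgeR, with 2 and 1 at an unadjusted p under 0.05.

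Of the 44 genes in the filter, Prdx1 was lower and Prdx6 higher in all 5 libraries of low mitochondrial share than in the other 7. That is 1 of 44 each way, beside 1.88% and 3.00% of 14830 genes, a share near that of all genes. Prdx1 was at 623 to 973 CPM in these 5 and at 975.5 to 1999 in the others, ranges that nearly touch. Prdx6, a peroxiredoxin with 1 reactive cysteine and phospholipase activity, was at 301 to 507 CPM against 144 to 226. The 5 libraries come from all 3 knockdown groups and from no control.

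Leaving out these 5 libraries, a comparison chosen after seeing the data, kept 2 libraries each of control, Nr5a2 KD and dKD and 1 of Klf5 KD. Then 3 of 38 of these genes tested fell and 6 rose in Nr5a2 KD, beside 6.44% and 4.39% of all genes, where Prdx1 joined those that rose and Prdx3 and Gsta4 those that fell. For Nr5a2 KD this is the fit without its replicate 3, given above. In dKD 3 of 39 fell and 4 rose, beside 4.60% and 2.80% of all genes, with Prdx1 and Txn1 now higher, Prdx3 now lower and G6pdx and Gsta3 no longer past the test (2.00, adjusted p = 0.0584 and 2.23, adjusted p = 0.0626). In dKD against Klf5 KD, with a single Klf5 KD library that is assumed to vary like those of dKD, 3 of 41 fell and 3 rose, beside 2.65% and 1.67% of all genes. Nqo1 was among the 3 that rose (adjusted p = 0.0241), while Gsta3 was at 3.504, adjusted p = 0.0135 and Idh1 at -2.28, adjusted p = 0.00204 (log2). So small a set bears little on the calls gained or lost in it. Those lost were Gss (1.54, adjusted p = 0.422), Mgst3 (1.60, adjusted p = 0.0729), Nqo2 (-0.91, adjusted p = 0.463), Prdx3 (-0.88, adjusted p = 0.0699) and Txnrd1 (1.91, adjusted p = 0.15).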

How the data were processed

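Each library was a pool of 10 embryos, amplified with SMART-seq v4 without molecular identifiers or strand. The authors trimmed reads (Trim Galore 0.6.2), aligned them with STAR to mouse GRCm38 and counted read pairs per gene with featureCounts 2.0.1, with pairs on overlapping genes split between them. The deposited values are therefore estimated counts, not normalized, and were rounded to whole numbers here. The filter was filterByExpr (minimum count 10, minimum total 15). edgeR 4.0.16 (TMM factors, quasi-likelihood test) was fitted to the 2 groups compared, with Benjamini-Hochberg adjustment over all genes tested and a threshold of 0.05. The interaction was fitted over 12 libraries. The fit was tested on simulated data. The labels do not name separate litters or days, so p-values measure the spread between pools. Depth was 6676683 to 12560926 gene counts, and intervals of counts cover counting error only.

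Genes shown with a value in every library were those past the threshold in Nr5a2 KD or dKD against control or dKD against Klf5 KD, and the most abundant of each family per kb. Slc3a2, which is not one of the 54, was chosen after its values were seen. The members and lists were chosen with earlier results of these data known. Same-numbered libraries deviated together in dKD and Nr5a2 KD only (correlations of 0.13, 0.221 and 0.254 over genes), so these 2 groups count as paired, from the data and not from the labels. The fit of dKD against Nr5a2 KD given above held no replicate term. With a replicate block, 8 of 43 of these genes and 855 of 13017 genes had an unadjusted p under 0.05 by edgeR, and 0 passed. Alternatives were DESeq2 1.42.0, other library sizes and filters, all libraries in 1 fit, a replicate block, the mitochondrial share as a covariate, unrounded counts, a 2-fold minimum and leaving out each library. Leaving out 5 libraries of low mitochondrial share was added after seeing the data.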

Additional observations from a re-analysis of the deposited data

How the results depend on the processing

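None of 22 passing results of single genes changed sign in any alternative. Of these, 11 were tested and kept their call under every alternative that did not leave out a single replicate, 10 kept it with every library left out in turn, and 8 did both, while 6 were not tested with a mean of at least 50 counts. With 2 control libraries, calls against control rest on few values, and 10 of the 54 genes were too low to test. Library sizes from ERCC counts moved the median over all genes (log2) to 0.82 in Nr5a2 KD, 0.84 in dKD, 0.66 in Klf5 KD and 0.19 in dKD against Klf5 KD, and that of the interaction to -0.62. Total counts moved it to 0.15 and 0.20 in the first 2 and to 0.24 in dKD against Klf5 KD.

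Counts of these genes are given with the share of all genes called lower and higher under the same setting. In Nr5a2 KD (1 lower and 5 higher, 5.32% and 3.72%) the 1 lower gene became 3 with DESeq2 (6.3% and 5.32%), the replicate block (5.41% and 3.54%), the mitochondrial covariate (3.21% and 2.28%) or without the 5 libraries of low mitochondrial share (6.44% and 4.39%), 4 with no filter (3.56% and 3.05%) and 2 with all 12 libraries in 1 fit (4.00% and 2.41%). The 5 higher became 8 with ERCC counts (0.679% and 5.74%). Leaving out each library gave 1 to 3 lower and 2 to 6 higher, beside 1.27% to 6.44% and 0.773% to 4.39% of all genes. In dKD (4.59% and 3.75%) the 2 lower became 1 and the 4 higher 13 with ERCC counts (1.33% and 21.2%), and 4 and 8 with the block (6.11% and 5.21%). The lower were 5 with no filter (3.57% and 3.51%), and the higher 7 with DESeq2 (6.29% and 6.57%) or the covariate (4.34% and 3.47%). Leaving out each library gave 1 to 3 and 0 to 5, beside 0.597% to 5.94% and 0.269% to 5.33%. In dKD against Klf5 KD (6.73% and 5.91%) the 5 lower and 5 higher became 3 and 2 with the block (2.23% and 1.89%) and 3 each without the 5 libraries (2.65% and 1.67%), where 1 Klf5 KD library is left. The lower were 3 with ERCC counts (2.73% and 4.56%), and the higher 8 with no filter (3.97% and 3.65%) and 2 with a mean of at least 50 counts (8.10% and 6.85%). Leaving out each library gave 3 to 6 and 3 to 5, beside 3.92% to 6.71% and 2.99% to 5.40%. Genes that passed only under an alternative were Gpx1, Gpx3, Gpx5, Gpx7, Gpx8, Gsta1, Gstm1, Gstz1, Nqo1, Prdx1, Prdx2, Prdx5 and Prdx6, a list over many settings for which no count over all genes was made. Leaving out a control leaves 1 control library, whose spread is taken from the knockdown group. The block lost Gss, Mgst3, Nqo2, Prdx3 and Txnrd1 in dKD against Klf5 KD (adjusted p = 0.112, 0.0533, 0.0936, 0.116 and 0.132, edgeR). It gave 1 higher gene in Klf5 KD (Prdx6), where the calls over all genes went from 0 to 150 lower and 119 higher (1.17% and 0.927%). With no filter 1 gene was lower in dKD against Nr5a2 KD (Mgst3, beside 0.0602% and 0.0106% of all genes), where the block changed no call. The groups other than dKD and Nr5a2 KD share only replicate numbers, with correlations from -0.203 to 0.0594. The summed control level of 2911 CPM was 2857 with DESeq2 size factors, 2742 with total counts and 1901 with ERCC counts. The cause of these changes was not tested.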
